A study of Brassica napus with 3 samples.

Results

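The regions described here are closely spaced pairs of H3K4me3 summits on the scaffolds of a Brassica oleracea reference that were found in both lines of a canola study. A summit is the position of highest signal in a peak called from the reads. A pair was taken when neighbouring summits of the control list lay at most 2000 bp apart on 1 scaffold and each of them had a PEG1 summit within 150 bp. The members were thus chosen by the measured positions of the summits in both lists, and neither scores nor the exact change of spacing entered the choice. This gave 2693 pairs with 5124 member summits, which were 14.09% of the 36371 control summits on that reference and 18.2% of the 28084 control summits with a PEG1 summit within 150 bp. The members lay on 688 of the 1244 scaffolds that carried control summits.

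The study immunoprecipitated mononucleosomes from leaf 4 of 26-day-old, untreated Brassica napus plants (canola, an allotetraploid whose C subgenome is related to B. oleracea). It compared PEG1, described in the labels as a selected epiline, with a control line of the same cultivar, after a selection that the series title links to energy efficiency and drought tolerance. One H3K4me3 library was made for each line, without crosslinking and with 30 U of micrococcal nuclease for 10 minutes, and a further library of the control line made without antibody was not analysed here. The labels name no replicate, so no difference between the lines has a replicate check and no test between them was possible. Neither library has a known read depth. The PEG1 list held 40707 summits on B. oleracea, against 36371 in the control list.

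Trimethylation of lysine 4 on histone H3 sits on the first nucleosomes downstream of the start of transcribed genes, where methyltransferases of the COMPASS and Trithorax families place it. In plant leaves most expressed genes carry 1 such domain at their 5′ end. In compact plant genomes, neighbouring genes that are transcribed away from each other have starts a short distance apart, and each start can carry a domain of its own. Alternative starts and short genes are other known settings of neighbouring domains. No annotation of this scaffold build was used here, so none of the pairs was assigned to genes, and the regions are named by the code that ends the scaffold name and by 1-based positions in the BGI scaffolds V2 of line TO1000.

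The spacing of the member pairs was spread broadly from about 550 bp up to the limit. In PEG1 the matched summits lay a median of 1236 bp apart (95% interval 1204 to 1263), and in the control the summits lay a median of 1230 bp apart (1207 to 1259). The middle 50% of the pairs spanned 854 to 1618 bp in PEG1 and 865 to 1619 bp in the control. The closest members were 388 bp apart in PEG1 and 366 bp apart in the control, and 123 PEG1 and 114 control spacings were at most 550 bp. Short spacings were also scarce among all neighbouring control summits, whatever their sharing. These numbered 225 from 601 to 650 bp, 52 from 401 to 450 bp and 16 from 351 to 400 bp. Each listed peak carried a single summit, so 2 summits were listed only where 2 peaks were called. How far that sets the lower edge of the spacings, or the sharing of the closest pairs, was not tested. In the 29 bins of 50 bp from 551 to 2000 bp the control counts lay between 74 and 104 pairs, with a mean of 88.9 and an SD of 7.41. The counting error of a bin of that mean is 9.43, so the control bins varied no more than counting error. The PEG1 bins held 52 to 114 pairs (mean 87.03, SD 13.3), which is more variation than the counting error of 9.33. The lowest 2 PEG1 bins were the last ones below the limit that was set on the control spacing. They held 62 pairs from 1901 to 1950 bp and 52 from 1951 to 2000 bp, against 83 and 90 in the control. A further 46 pairs lay beyond 2000 bp in PEG1. How far that limit sets the greater variation of the PEG1 bins was not tested.

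**Figure D1:**
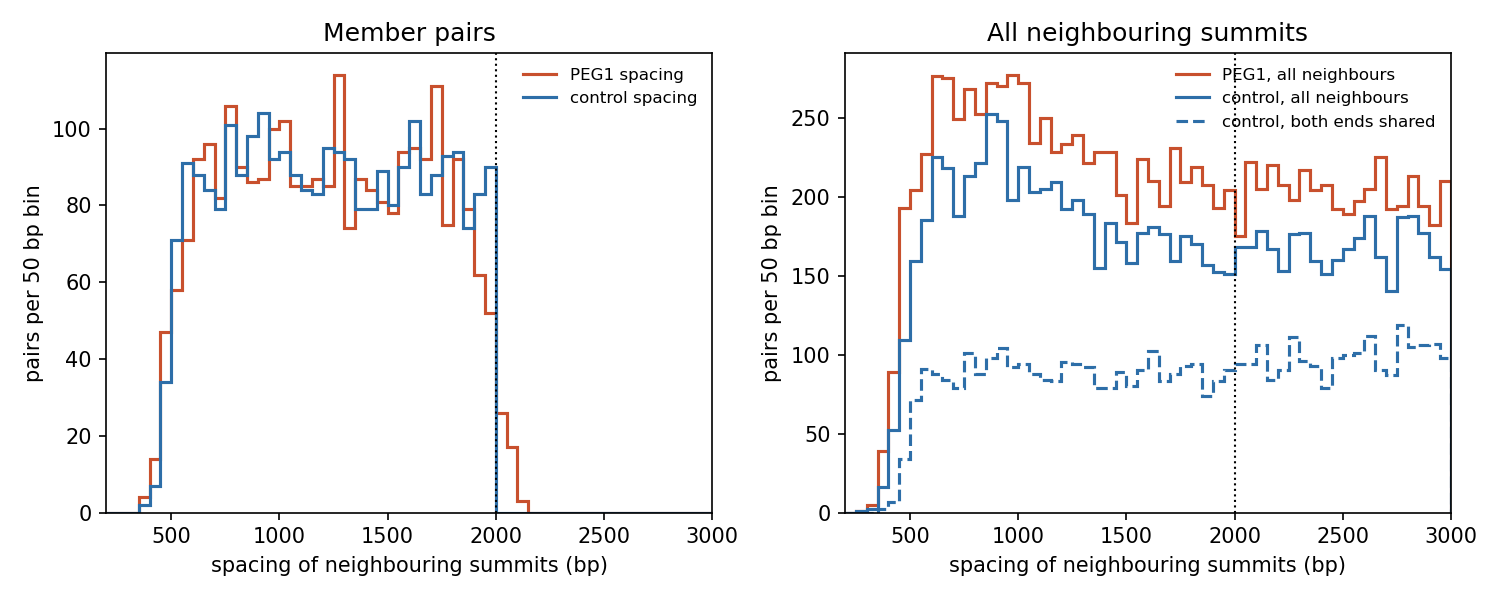
Number of pairs per 50 bp bin (vertical axis) against the spacing of neighbouring summits in bp (horizontal axis). The left panel shows the 2693 member pairs with their PEG1 and control spacings, and the right panel all neighbouring summits of the PEG1 list and of the control list, with the control neighbours that have both ends shared as a dashed line; the dotted line marks 2000 bp. The control spacings of the members form a plateau between 74 and 104 pairs per bin from 551 bp to the limit, and the dashed line continues past it.

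The plateau of the shared pairs contrasted with the shape over all neighbouring summits of a list, whatever their sharing. All PEG1 neighbours numbered 276 in the bin from 601 to 650 bp and 204 in the bin from 1951 to 2000 bp. All control neighbours numbered 225 and 151 in the same bins. Control neighbours with both ends shared numbered 88 and 90. Their plateau did not end at the limit. From 2001 to 3000 bp their bins held between 79 and 119 pairs, so it is not particular to the members. Of all neighbouring summits, 7305 of the 39434 PEG1 neighbours (18.5%) and 5867 of the 35127 control neighbours (16.7%) were at most 2000 bp apart.

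Sharing, which the choice of the members used, is given as a description. Of the 5867 close control pairs, 45.9% had both ends shared, 45.9% had 1 end shared and 8.23% had none. Over all neighbouring control summits of any distance, 59.2% had both ends shared. The share of close pairs with both ends shared was 23.9% (18.2 to 30.6) up to 500 bp, 42.5% (40.4 to 44.6) from 501 to 1000 bp, 45.6% (43.4 to 47.8) from 1001 to 1500 bp and 52.96% (50.6 to 55.4) from 1501 to 2000 bp. Scores moved with these classes. Both summits scored above the median of the control list in 5.56% of the pairs up to 500 bp, 12.1% from 501 to 1000 bp, 12.9% from 1001 to 1500 bp and 20.2% from 1501 to 2000 bp. Among pairs with both scores above the median the shares with both ends shared were 7 of 10 pairs, 74.5%, 78.3% and 74.3% in these classes, with overlapping intervals. Among the remaining pairs they were 21.2%, 38.1%, 40.7% and 47.5%.

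The number of PEG1 summits over the stretch of a close control pair, counted from 150 bp before its first summit to 150 bp after its second, was most often 2. It was 2 in 54.5% of the 5867 stretches (53.2 to 55.7), 1 in 40.6% (39.3 to 41.9), 0 in 3.92% and 3 or more in 1.02%. Where PEG1 had a single summit, it lay within 150 bp of the stronger control summit only in 72.5% of the 2382 cases, of the weaker only in 17.7%, and of neither in 9.74%. The weaker control summit of these cases had a median score of 4.73 and the stronger one of 18.8. In the reverse direction, the stretch of a close PEG1 pair held 2 control summits in 43.9% of 7305 cases, 1 in 46.9%, none in 8.56% and 3 or more in 0.643%. The PEG1 list is the longer one, and how far list length sets the difference between both directions was not tested.

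**Figure D2:**
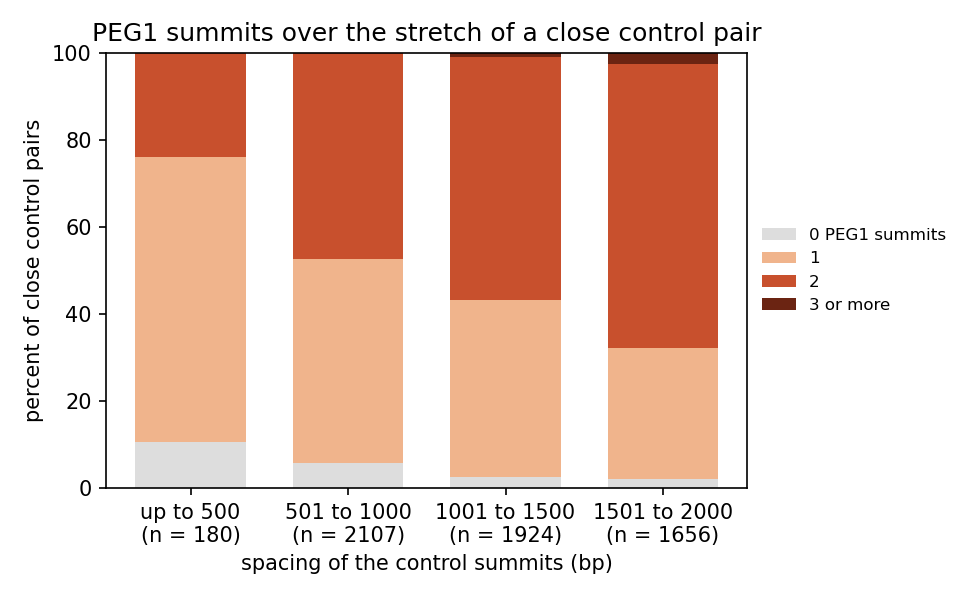
Percent of the close control pairs (vertical axis) with 0, 1, 2 or 3 and more PEG1 summits over their stretch, for 4 classes of control spacing in bp (horizontal axis, with the number of pairs). A single PEG1 summit was found over 65.6% of the stretches of pairs up to 500 bp apart and over 29.9% of those from 1501 to 2000 bp apart.

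For the member pairs themselves, the spacing in PEG1 was close to that in the control. The rule lets each end lie up to 150 bp from its PEG1 summit, so a spacing could differ by at most 300 bp, and only the spread inside that range is a measurement. The PEG1 spacing minus the control spacing had a mean of −0.61 bp and an SD of 76.1 bp over the 2693 pairs. Its median size was 47 bp (46 to 50). It was at most 10 bp in 13.6% of the pairs, at most 50 bp in 52.4% (50.5 to 54.3), at most 100 bp in 81.7% and at most 150 bp in 94.8%. Over all 20793 shared neighbouring control summits of any distance, 53.9% kept their spacing to within 50 bp. The members' share lay within its interval of that value and is therefore not particular to close pairs. Spacings were wider in PEG1 in 1339 pairs, narrower in 1335 and equal in 19.

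**Figure D3:**
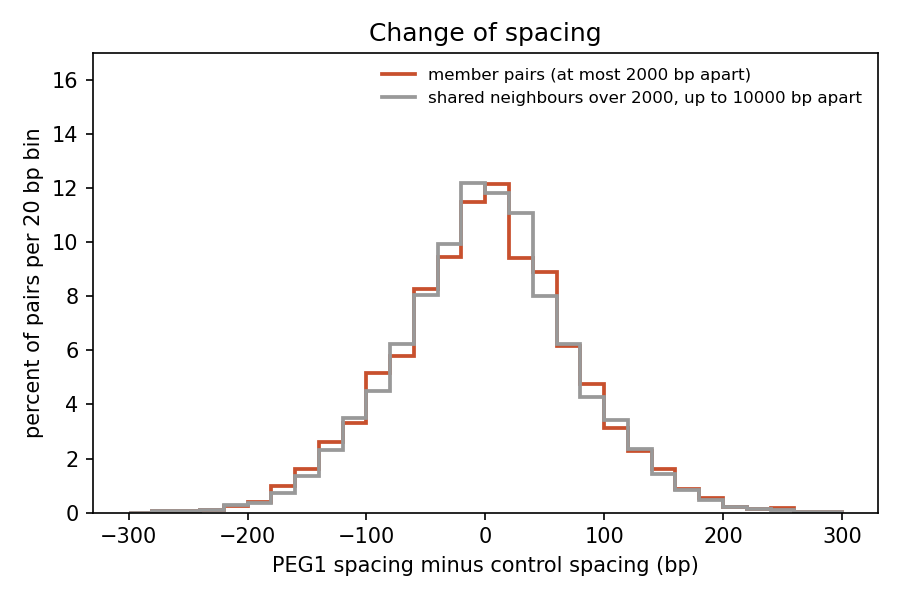
Percent of pairs per 20 bp bin (vertical axis) against the PEG1 spacing minus the control spacing in bp (horizontal axis), for the 2693 member pairs and for the 10109 shared neighbouring control summits from 2001 to 10000 bp apart. Both curves are centred near 0, with an SD of 76.1 bp for the members and 73.3 bp for the distant neighbours.

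The displacements of both ends of a pair were not correlated. The left summit was displaced between the lines with an SD of 53.7 bp and the right summit with an SD of 53.1 bp. The correlation of both displacements was −0.016 over the 2693 pairs, which all come from the same 2 libraries. Of the 2588 pairs with both ends displaced, 50.04% (48.1 to 51.96) moved in the same direction. Shared neighbours from 2001 to 10000 bp apart gave the same picture, with a correlation of 0.00077, 50.01% moving in the same direction and 54.1% (53.1 to 55.1) keeping the spacing to within 50 bp.

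The spread of the change of spacing was similar in the classes of spacing. The SD was 66.6 bp for the 43 pairs up to 500 bp apart, 75.3 bp for 896 pairs from 501 to 1000 bp, 75.8 bp for 877 pairs from 1001 to 1500 bp and 77.3 bp for 877 pairs from 1501 to 2000 bp. The mean change was 24.5 bp, 4.08 bp, −2.14 bp and −5.11 bp in the same order. The classes were cut on the control spacing, which is itself part of the difference, and how far the cut sets these means was not tested. On the B. rapa reference the means were 34.8, 0.24, −1.89 and 4.08 bp in the same order, so only the last was of the opposite sign. The shares keeping the spacing to within 50 bp were 53.5%, 51.7%, 51.8% and 53.8%, with overlapping intervals.

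How far a member summit lay from its PEG1 summit differed with its score. These values count the 5386 ends of the pairs, so that inner summits of chains enter 2 times. Ends up to percentile 25 of the control list by score lay a median of 42.5 bp (39 to 45) from their PEG1 summit, those from percentile 25 to 50 lay 31 bp (29 to 34), those from percentile 50 to 75 lay 27 bp (25 to 29) and those above percentile 75 lay 23 bp (22 to 25). Within a pair, the summit with the higher control score lay a median of 26 bp (25 to 28) from its PEG1 summit and the other one 33 bp (32 to 35). Distant shared neighbours had medians of 42, 33, 28 and 22 bp in the same score classes. The members lay a median of 30 bp (29 to 31) from their PEG1 summits, against 29 bp (28 to 29) for the 22960 other shared summits, and 69.96% against 71.2% of them lay within 50 bp.

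The deposited score of a summit is a −log10 of its significance and depends on the depth of the library, so scores were ordered within each list and their levels are not compared between lines. Members scored lower than other shared summits in both lists. In the PEG1 list the median score was 23.6 (23.1 to 24.1) at member summits and 27.6 (27.2 to 28.1) at the other shared summits. In the control list it was 16.3 (16.01 to 16.9) at members and 19.6 (19.1 to 19.8) at the other shared summits, a difference of −3.30. The median member stood at percentile 54.7 of the PEG1 list and 49.6 of the control list, and the median of the other shared summits at percentile 62.4 of the PEG1 list and 57.9 of the control list. Unshared control summits had a median score of 8.43.

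**Figure D4:**
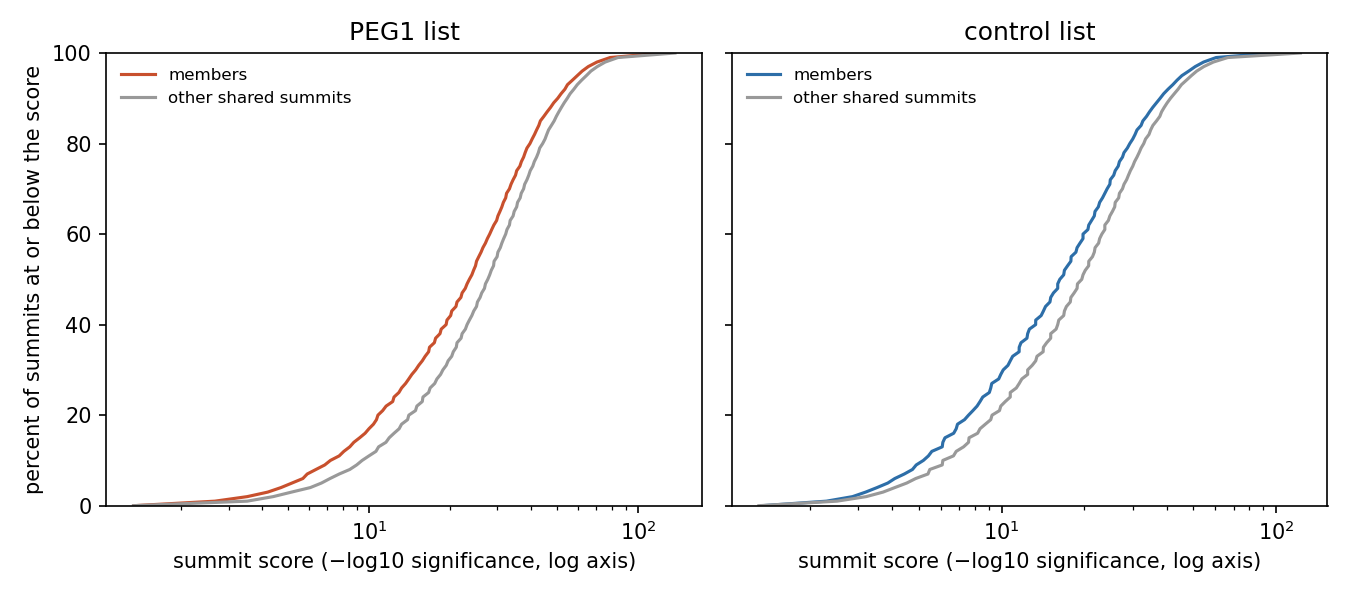
Percent of summits at or below a score (vertical axis) against the score, a −log10 significance on a log axis (horizontal axis), in the PEG1 list (left panel) and the control list (right panel). In each list the curve of the members lies to the left of the curve of the other shared summits, with medians of 23.6 against 27.6 in PEG1 and 16.3 against 19.6 in the control.

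The summits of a pair often differed widely in score, and distant shared neighbours did so somewhat less often. The stronger summit of a pair had a median score of 33.3 (32.4 to 34.3) and the weaker one of 14.05 (13.6 to 14.9) in PEG1, and 24.7 (23.8 to 24.9) and 9.93 (9.28 to 10.1) in the control. Shared neighbours from 2001 to 10000 bp apart had medians of 37.5 for the stronger and 19.02 for the weaker summit in PEG1, and of 27.6 and 12.7 in the control. Control scores differed by 3 times or more in 843 of the 2693 member pairs and in 2689 of the 10109 distant ones, which is a smaller share. Both summits exceeded the median of their list in 30.3% of the pairs in PEG1 and in 23.8% in the control. Exactly 1 of them did so in 50.4% in PEG1 and in 50.9% in the control, and neither in 19.3% in PEG1 and 25.3% in the control. Taken singly, 55.8% of the members exceeded the median in PEG1 and 49.6% in the control. Of the other shared summits, 64.8% did so in PEG1 and 58.5% in the control. The rank correlation of the scores of both ends was −0.041 in PEG1 and −0.018 in the control, as a description over pairs of the same libraries.

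The most widely spaced members had the highest scores in both lists. The weaker summit had a median score of 10.9 (7.74 to 14.9) in PEG1 and 7.58 (6.09 to 10.5) in the control up to 500 bp. From 501 to 1000 bp it was 12.9 (12.2 to 13.7) in PEG1 and 9.13 (8.85 to 9.93) in the control. From 1001 to 1500 bp it was 13.7 (12.6 to 14.8) in PEG1 and 9.13 (8.56 to 9.93) in the control, much as in the class before. From 1501 to 2000 bp it was 16.6 (15.6 to 18.2) in PEG1 and 11.6 (10.6 to 11.8) in the control. The stronger summit had a median of 31.2 (29.9 to 32.2) in PEG1 and 22.8 (21.8 to 23.9) in the control from 501 to 1000 bp, and of 36.6 (35.4 to 37.6) in PEG1 and 26.8 (25.6 to 27.5) in the control from 1501 to 2000 bp.

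The order of strength within a pair was mostly kept. The same summit had the higher score in PEG1 and in the control in 2222 of the 2693 pairs, 82.5% (81.03 to 83.9). Over all shared neighbouring control summits it was 82.1%, so close pairs did not stand out. The share followed the size of the difference. Where the control scores of a pair differed by less than 1.5 times the order was kept in 62.05% of 801 pairs, from 1.5 to 3 times in 85.5% of 1049 pairs, and from 3 times upwards in 98.2% of 843 pairs. The shifts in percentile between the lines at both ends of a pair had a rank correlation of 0.00053.

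A further PEG1 summit inside a member pair was rare. In 46 of the 2693 pairs, 1.71% (1.28 to 2.27), a further PEG1 summit lay between the matched ones. With the PEG1 list shortened to its best-scored 36371 summits, as many as the control list holds, the share was 0.943% (0.629 to 1.41), and with only summits scoring at least 5 it was 0.849%. Over all shared neighbouring control summits, which lie farther apart, it was 16.6%. Seen from the PEG1 list, 41 of 2698 close shared PEG1 pairs, 1.52% (1.12 to 2.05), had a further control summit between them. The pairs with a further PEG1 summit were mostly wide, with a median control spacing of 1657 bp (1582 to 1738), and 33 of the 46 were over 1500 bp apart. The further summits had a median score of 5.65 (4.40 to 7.31), and 1 of them scored above the median of the PEG1 list. In 2602 member pairs the matched PEG1 summits were themselves neighbours at most 2000 bp apart. These made up 96.6% of the member pairs and 96.4% of the close shared PEG1 pairs. A spacing could differ by at most 300 bp, so the rule sets much of both shares. No pair was matched to a single PEG1 summit. Members lay at least 366 bp apart in the control and matches within 150 bp, so none could be.

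Member pairs that follow each other form chains. The 2693 pairs fell into 2431 groups, of which 2201 were lone pairs and 230 were chains of 3 or more summits. Among the chains 202 had 3 summits, 25 had 4, 2 had 5 and 1 had 6. Together the chains held 722 summits, 14.09% of the members (13.2 to 15.1). The chains spanned a median of 2598 bp in PEG1 (2503 to 2716) and 2595 bp in the control (2513 to 2712). The span differed by at most 50 bp in 52.2% of the chains (45.7 to 58.5), with an SD of 72.8 bp. That difference depends only on the displacements of the outer summits, each bounded by 150 bp, so the length of a chain does not enter it. A further PEG1 summit lay inside 5 of the 230 chains. Beyond its ends, a group of linked members was a median of 6745 bp from the next control summit (6502 to 7069), and in 5.99% of 4723 cases that summit lay within 2000 bp and was not shared.

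Chains did not score higher than lone pairs. Their summits had a median score of 22.3 (21.2 to 24.1) in PEG1 and 15.6 (14.5 to 16.7) in the control, while the summits of lone pairs had 23.7 (23.1 to 24.4) in PEG1 and 16.5 (16.01 to 16.9) in the control, with overlapping intervals in each list. In the 202 chains of 3 the middle summit was the highest in 65 chains in PEG1 and in 66 in the control. The same summit was the highest in both lines in 144 of them, 71.3% (64.7 to 77.1). On the B. rapa reference the middle summit was the highest in 44 of 183 such chains in PEG1 and in 47 in the control. In the 28 chains of 4 or more on B. oleracea the highest summit was at an end in 17 chains in PEG1 and in 16 in the control. Whether these places differ from a random order of scores was not tested. Without the demand that summits be shared, the PEG1 list held 1120 chains of 3 or more and the control list 792. How far the greater length of the PEG1 list sets this difference was not tested. In 188 of the control chains, 23.7%, every summit had a PEG1 summit within 150 bp. The longest of these unrestricted chains had 7 summits in PEG1 and 9 in the control.

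The longest shared chain lay on scaffold ERB29737, with 6 control summits from 69637 to 77164. Its spacings were 2033, 766, 1553, 1327 and 1902 bp in PEG1, against 1985, 721, 1610, 1296 and 1915 bp in the control. The scores of its summits, from left to right, were 13.6, 46.7, 12.4, 7.18, 10.6 and 53.4 in PEG1 and 12.01, 45.1, 6.11, 7.35, 9.13 and 43.6 in the control. The second and the last summit stood out in both lists, and the order of the spacings was the same.

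On scaffold ERB29672, 5 control summits ran from 227399 to 232695. The spacings were 1974, 1467, 1259 and 644 bp in PEG1, against 1921, 1413, 1383 and 579 bp in the control. The outer summits scored 65.03 and 68.7 in PEG1 and 75.2 and 56.7 in the control, and the 3 inner ones between 6.58 and 24.5 in PEG1 and between 7.39 and 21.9 in the control. The summits of this chain that flank the stretch were thus the high ones in both lines, and which of them was the higher differed. On scaffold ERB29360, 5 control summits from 687719 to 691364 were spaced 1204, 910, 675 and 800 bp in PEG1, against 1261, 906, 760 and 718 bp in the control. Its scores ran from 7.27 to 45.3 in PEG1 and from 2.65 to 15.1 in the control.

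The other chains named by the rule had 4 summits each. The most compact was on scaffold ERB29547 from 231076 to 233691, spaced 615, 1452 and 511 bp in PEG1 and 642, 1470 and 503 bp in the control, and none of its scores was below 24.9 in PEG1 or below 19.7 in the control. The chain on ERB29699 from 344378 to 348719 was the one whose span differed most among the 10, at 4172 bp in PEG1 and 4341 bp in the control. The chain on ERB29525 from 157255 to 161295 spanned 3925 bp in PEG1 and 4040 bp in the control. The remaining 4, on ERB30010, ERB29596, ERB29460 and ERB29332, had spans that differed by −52, 7, 8 and −5 bp, PEG1 minus control.

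**Figure D5:**
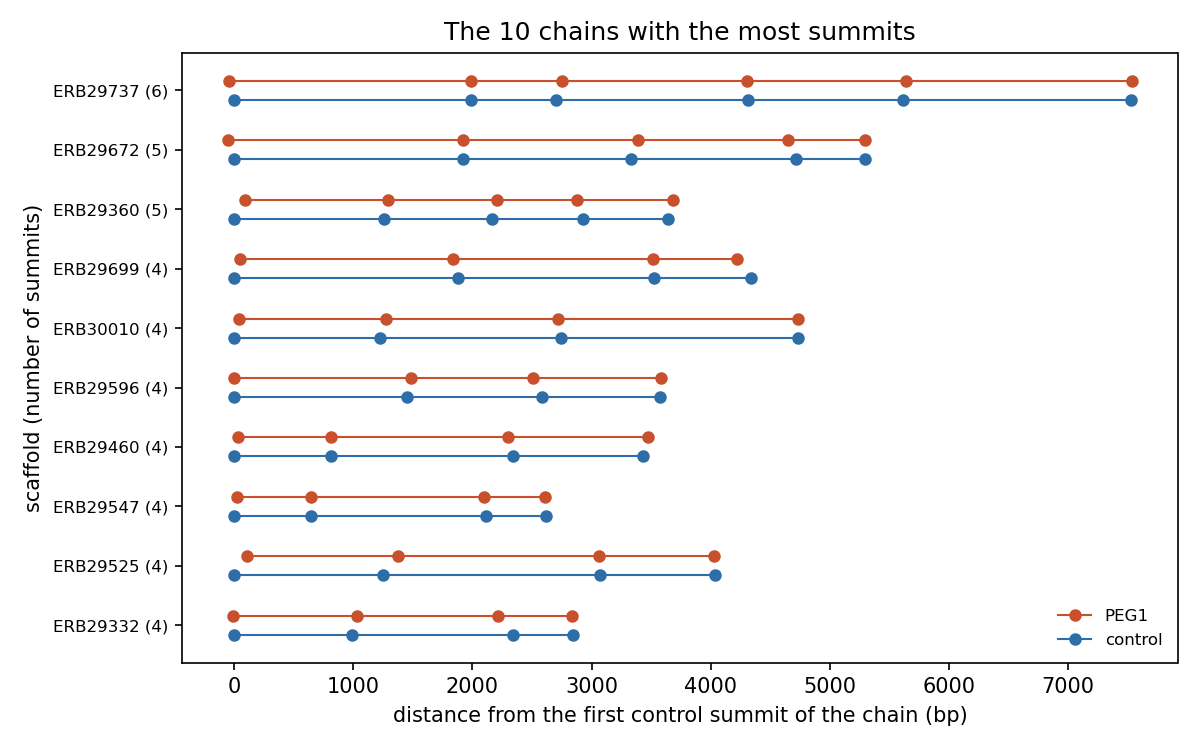
Positions of the summits of the 10 chains with the most members, as the distance in bp from the first control summit of each chain (horizontal axis), one scaffold per row with its number of summits in parentheses; PEG1 is drawn above the control. The span of the chain on ERB29737 was 7581 bp in PEG1 and 7527 bp in the control, and that on ERB29699 was 4172 bp in PEG1 and 4341 bp in the control.

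The closest member pair lay on scaffold ERB29739 at 129859 and 130225 in the control, 366 bp apart, and 435 bp apart in PEG1. Its summits scored 29.9 and 23.97 in PEG1, against 12.9 and 14.6 in the control. The next closest were on ERB29431 at 521786 and 522162 (439 bp apart in PEG1, 376 bp in the control), on ERB29436 at 431809 and 432231 (455 bp in PEG1, 422 bp in the control), on ERB30088 at 125797 and 126237 (442 bp in PEG1, 440 bp in the control) and on ERB29355 at 218763 and 219205 (528 bp in PEG1, 442 bp in the control). All 5 were wider in PEG1, but they were chosen as the smallest control spacings, and such a choice favours a larger PEG1 value.

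The pairs with the highest weaker summit in the control had both scores above 52.9 in that list. They lay on ERB29643 at 422817 and 423942, where the scores were 53.1 and 70.8 in PEG1 and 56.9 and 59.6 in the control, on ERB29452 at 12786 and 14034, with 105.5 and 72.5 in PEG1 and 94.1 and 55.8 in the control, and on ERB29596 at 274792 and 276203, with 93.6 and 120.8 in PEG1 and 53.4 and 89.1 in the control. The remaining ones were on ERB29655 at 186246 and 187877 and on ERB29342 at 1362611 and 1364406, and both of these had a further PEG1 summit between the matched ones. All 5 kept their spacing to within 24 bp, at 1149, 1266, 1395, 1615 and 1811 bp in PEG1, against 1125, 1248, 1411, 1631 and 1795 bp in the control.

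The largest differences in spacing came close to the 300 bp that the rule allows. The pair that was widened most lay on ERB29432 at 687848 and 688398, 835 bp apart in PEG1 and 550 bp apart in the control. The stronger summit there was the left one in PEG1 (30.8 against 11.6) and the right one in the control (25.8 against 19.4). The pair narrowed most lay on ERB29654 at 295976 and 297861, 1608 bp apart in PEG1 and 1885 bp apart in the control. The other 4 of the 5 most widened, on ERB29358, ERB29554, ERB29774 and ERB29616, had PEG1 minus control spacings of 263, 257, 251 and 248 bp, and the other 4 most narrowed, on ERB29480, ERB29571, ERB29357 and ERB29447, of −264, −257, −249 and −238 bp.

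At the limits of the rule, the last pairs inside 2000 bp were 1937, 2074 and 2127 bp apart in PEG1 and 1998, 1999 and 2000 bp apart in the control, and the first outside it were 1989, 1975 and 2025 bp apart in PEG1 and 2002 bp apart in the control in each case. The outermost members lay 150 bp from their PEG1 summit, and the nearest summits left out, with a shared neighbour within 2000 bp, lay 151, 152 and 152 bp from theirs.

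The most member pairs lay on ERB29323 (34 pairs), ERB29322 (31), ERB29325 (28), ERB29342 (26) and ERB29326 (25), which are among the scaffolds with the most summits. Members made up 16.3, 12.98, 13.1, 20.1 and 15.03% of the control summits there. Over the 116 scaffolds with control summits out to 1 Mb or beyond, the share had a median of 14.6%, and 3 of them, ERB29346, ERB29352 and ERB29411, held no member among their 36, 27 and 44 control summits. The highest share, 28.9%, was on ERB29425, with 26 members among 90 control summits.

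The same rule applied to the lists on the B. rapa reference, which stands for the A subgenome, gave 2324 pairs with 4416 summits, 15.96% of the control summits there (15.5 to 16.4), against 14.09% (13.7 to 14.4) on B. oleracea. Over all neighbouring control summits on B. rapa 62.5% had both ends shared. The median spacing was 1219 bp in PEG1 (1184 to 1247) and 1224 bp in the control (1197 to 1262). The spacing was kept to within 50 bp in 53.3% of the pairs (51.2 to 55.3), the same summit was the stronger in 81.6% (79.96 to 83.1), and a further PEG1 summit lay between in 1.94% (1.45 to 2.58). Over all shared neighbours on that reference these shares were 54.4%, 81.1% and 17.3%. Chains of 3 or more numbered 206 and held 14.6% of the members. The intervals of these 3 shares of pairs, of the spacing and of the share in chains overlap those on B. oleracea. That of the share of close control pairs with both ends shared does not, at 50.1% (48.7 to 51.6) on B. rapa and 45.9% (44.6 to 47.2) on B. oleracea. The median control score of members minus that of other shared summits was −2.51 on B. rapa. The same 2 libraries were listed against both references, and reads that fit both may have supported summits on each, so the B. rapa values are no independent repeat.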

How the data were processed

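Leaf chromatin of PEG1 and control plants was profiled for H3K4me3, with 1 library per line. The authors deposited 1 list of 1 bp summits per library and reference, with a score on a −log10 scale of significance. The submitters' processing notes name MACS2 2.0 for the peaks. Not given in the sources used here are the aligner, the filters, the background and whether scores are p- or q-values. The lowest scores lay just above the −log10 of 0.05. The summit positions, in bp, are used as deposited. All peaks carried a single summit. Depth is unknown.

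Each control summit was matched to its nearest PEG1 summit (limit 150 bp). Neighbours were paired up to 2000 bp apart, and pairs sharing a summit were linked to chains. Shares carry 95% Wilson intervals and medians 95% binomial order-statistic intervals. Both cover counting error only and treat pairs as independent, although chained pairs share summits and all pairs share 2 libraries. Percentiles are ranks within a list. No test was made between lines. Scripts in Python 3.11.15 with SciPy 1.17.1, NumPy 2.4.6 and pandas 2.3.3, and figures from matplotlib 3.10.9, were used. The matching code was run on simulated data with smaller displacements than many here and no added PEG1 summits. That run checks the code and not the matching under the conditions of these lists. The members and lists were chosen with earlier results of these data known. Named regions were the 5 closest pairs, the 5 with the highest weaker summit, the 5 most widened and 5 most narrowed, the 10 longest chains (ties by summed control score), those at the limits, and the 5 scaffolds with the most pairs. The alternatives were other distances, score minimums, equally long lists and mutual matching. Counts of chains of 4 or more by the place of their highest summit were added after the values were seen.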

Additional observations from a re-analysis of the deposited data

How the results depend on the processing

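No paired analysis was possible because each line has 1 library, and for the same reason no library could be left out. Of 70 alternative values of the 7 main results, 34 stayed within their interval (counts within 1.5 times) and 36 moved. Of the 7 results only the score difference has a sign that could change. The 34 include the 7 values of mutual matching, which could not move. Values follow the order number of pairs, percent of members in chains, median control spacing, percent keeping the spacing to within 50 bp, percent with a further PEG1 summit between, percent with the same summit stronger, and median score of members minus other shared summits, and only those that moved are given. With neighbours at most 1000 bp apart they were 939 pairs, 2.15%, 757 bp, 0.106% with a further summit and a score difference of −3.90. At 1500 bp they were 8.63%, 983.5 bp, 0.716% and −3.78, and at 3000 bp 4663 pairs, 27.1%, 1788 bp, 4.07% and −1.70. With PEG1 summits within 50 bp there were 1323 pairs, 9.74% in chains and 82.99% keeping the spacing. Within 100 bp the last 2 were 12.7% and 60.7%, and within 300 bp 16.4% and 41.98%. The construction sets much of the shares keeping the spacing, since the matching distance bounds the change of spacing. It also decides which summits count as shared, and how far that sets the number of pairs and the chain shares was not tested. With only summits at or above the median score of their list there were 529 pairs, 6.09%, 1362 bp, 62.004%, 0.189%, 74.1% and −1.30. With a score of at least 5 they were 11.8%, 1265.5 bp, 55.6%, 0.849%, 80.5% and −2.54. Equally long lists gave 13.2% in chains and 0.943% with a further summit. Matching only mutually nearest summits left all 7 values identical; with members at least 366 bp apart it could not separate any of them, so it says nothing on stability. The score difference was below 0 under all 10 alternatives. Depth is unknown, so which weak neighbours a deeper library would have added cannot be read from these lists.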
